A study of Danio rerio with 8 samples.

Results

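The genes described here encode the subunits of mitochondrial oxidative phosphorylation, read in hearts of zfpm1 mutant and control zebrafish (Danio rerio). Members were all gene IDs whose symbol began, in upper or lower case, with nduf followed by a, b, c, s or v, with sdh followed by a, b, c or d, with uqcr, with cox followed by a digit of the structural subunits, with atp5, or with the mitochondrial prefixes for ND, CO, CYB and ATP genes. This gave 117 of the 31953 gene IDs counted, 104 encoded in the nucleus and 13 in mitochondrial DNA. They fell into 45 members of complex I, 5 of complex II, 9 of complex III, 25 of complex IV, 22 of complex V and 11 assembly factors whose names share these prefixes. A filter on low counts kept 113 of the 117 for testing. Of the remaining 4, NDUFA12 and ndufa9b had no count in any of the 6 libraries. UQCRB had 0, 0 and 3 counts in mutant hearts and 2, 1 and 6 in control hearts, and ndufa4l2b had none in mutant hearts and 10, 0 and 1 in control hearts. Why these counts were so low was not tested, so they are not read as absent expression.

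The zfpm1 mutant group held 3 libraries and the control group 3 libraries, all from TU strain hearts at 21 days post fertilisation (dpf). The gene's product belongs to the FOG proteins, zinc finger partners of GATA factors, and the series asked which genes lie downstream of it in the embryo and in the maturing heart chambers. The labels name neither the mutant allele nor the sex of the fish, and they do not say if a library is 1 heart or a pool. The p-values thus rest on the spread between libraries, part of which may be technical. edgeR estimates that spread for a gene partly from other genes of similar level. The controls are called control and no more is said of their genotype. Libraries are numbered 1 to 3 in each group as in the labels, and values are given in that order.

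Oxidative phosphorylation takes place in the inner mitochondrial membrane. Complexes I and II pass electrons from NADH and succinate to ubiquinone, complex III passes them to cytochrome c, and complex IV, cytochrome c oxidase, passes them to oxygen. Complexes I, III and IV pump protons, and complex V, the ATP synthase, lets them back through a rotor to make ATP. Most subunits are encoded in the nucleus and imported, while a small set of hydrophobic core subunits is made inside the organelle, and complex II has no mitochondrially encoded subunit. Heart muscle depends on this pathway for most of its ATP and is dense in mitochondria. Because the samples are whole tissue, fewer cells rich in mitochondria and less RNA per cell cannot be told apart.

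Gene counts were 7614329, 8482698 and 9909966 in mutant hearts and 8741419, 9632464 and 8197337 in control hearts. Levels are given as CPM, gene counts relative to library size, after scaling by trimmed mean of M-values (TMM). The TMM factors were 1.18, 1.052 and 1.051 in mutant hearts and 0.937, 0.844 and 0.97 in control hearts, and a higher factor lowers CPM. This unit is not corrected for gene length, so levels are compared between groups for a gene and not between genes. zfpm1 itself had 62.4, 53.0 and 92.1 CPM in mutant hearts and 51.3, 42.4 and 53.4 CPM in control hearts, which differed by 0.50 ± 0.235 (SE) on the log2 scale without passing the edgeR quasi-likelihood test (adjusted p = 0.241), so its transcript level does not tell the genotypes apart. The heart label was checked on 20 cardiomyocyte marker IDs, all detected in every library, which summed to 31351, 52443 and 56921 CPM in mutant hearts and 87949, 77619 and 70651 CPM in control hearts. Both files labelled as 36 hours post fertilisation embryos match a heart library and were not used as samples. The file labelled control embryo and mutant heart 1 share a total of 19276348 over all lines, and the file labelled mutant embryo and control heart 1 share 22649056. In each match the labels differ in genotype, tissue and age, and which label is right was not tested. Over genes with at least 50 counts the median ratio of heart to matching file was 0.503 and 0.504.

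After TMM scaling, transcripts of the oxidative phosphorylation complexes were lower in mutant hearts by a similar amount for most members, but no single member passed the edgeR test. Before scaling, all members took 11.64%, 12.83% and 12.77% of gene counts in mutant hearts, against 16.79%, 13.11% and 12.81% in control hearts, with overlap. As such shares, mitochondrially encoded members overlapped between groups and nuclear-encoded members did not. Of 113 tested members, 110 had a log2 fold change of mutant over control below 0 (97.3%), against 50.6% of all 16707 genes tested. The 3 above 0 were NDUFA4L2 (1.42), the assembly factor NDUFAF2 (0.03) and the SDHD ID ENSDARG00000055712 (0.02). The median was -0.56, a level 32.2% lower in mutant hearts, with a middle range of -0.62 to -0.48, whereas all genes had a median of -0.01 and a middle range of -0.32 to 0.42. At an adjusted p under 0.05 edgeR called 0 of 113 members lower and 0 higher, where 2.42% of all genes were called lower, 7.02% higher and 9.43% in either direction. The smallest adjusted p among members was 0.0667, that of NDUFS6. At an unadjusted p under 0.05, 39 members were lower (34.5%, against 9.14% of all genes) and 1 was higher (against 14.5%). That count of 39 was 12 without mutant heart 1, 9 without control heart 2 and 5 with libraries scaled by size alone. The shares of all genes under those settings are not given here. DESeq2 called 9 members lower, where it called 4.17% of all genes lower. Every mutant library was below every control library for 74 of 113 members (65.5%, against 12.9% of all genes), and the reverse held for 1 member (against 16.8% of all genes).

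The standard error of a member's log2 fold change had a median of 0.26 and ranged from 0.19 to 0.68, and the 95% interval lay wholly above -1, a 2-fold lower level, for 21 of 113 members. Relative to the median of all genes the members' median was -0.55. Scaling libraries by their size alone moved the median of all genes by 0.26 and the members' own median to -0.31. Such a change shifts all genes by nearly the same amount, so the relative median, -0.56 there, could hardly differ.

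**Figure D1:**
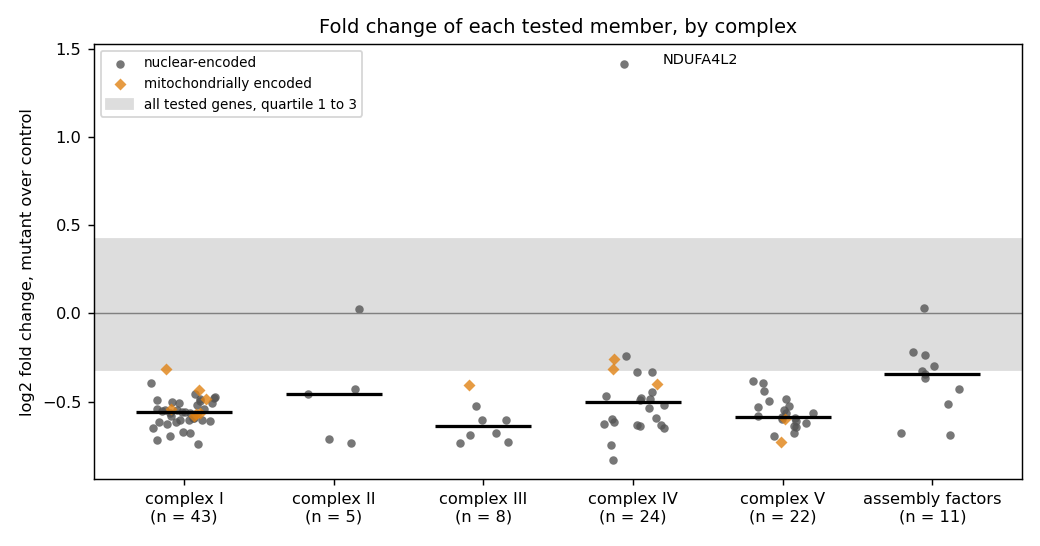
Log2 fold change of mutant over control hearts (vertical axis) for each of 113 tested members by complex, with nuclear and mitochondrially encoded members marked apart, the median of each complex as a line assembly factors in a column of their own and the middle range of all tested genes as a grey band. Most points lie between -0.8 and -0.4, and NDUFA4L2 in complex IV stands alone at 1.42.

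Individual libraries contributed unequally. Mutant heart 1 was the lowest of the 6 libraries for 105 of 113 members, and control heart 2 the highest for 86. The shares of all genes for these libraries are not given here, so the counts describe the members alone. Mutant heart 1 also had the highest TMM factor, 1.18, and control heart 2 the lowest, 0.844. With mutant heart 1 set aside, mutant hearts 2 and 3 were both below all controls for 77 members, of which 71 were nuclear and 6 mitochondrial, against 16.3% of all genes. The members' median was -0.35 without mutant heart 1 and -0.43 without control heart 2, while it was -0.60 without control heart 1 and -0.64 without control heart 3. Fitted without both libraries numbered 1, which are those matched by the files labelled as embryo, it was -0.37 against a median of 0.03 for all genes, and the groups did not overlap with mutants lower for 88 of 113 members, against 24% of all genes tested there.

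**Figure D2:**
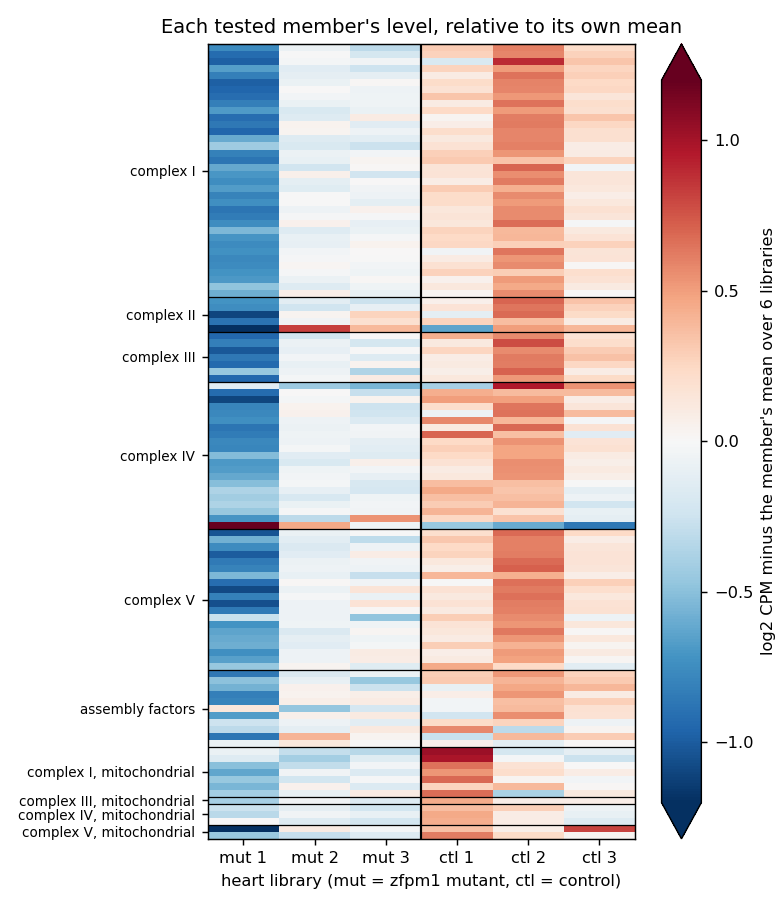
Deviation of each tested member (rows, by complex) from its mean over the 6 libraries, in log2 CPM, with the 3 mutant libraries in the columns on the left and the 3 control libraries on the right; values beyond the colour scale take its end colours. Mutant heart 1 is the lowest column for 105 of 113 rows and control heart 2 the highest for 86, and the shares of all genes are not given here.

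Complex I, the NADH dehydrogenase, had 43 tested members of 45, all with a log2 fold change below 0 (median -0.56, from -0.74 to -0.32). The 36 nuclear members and the 7 mitochondrial members had medians of -0.56 and -0.54. Groups did not overlap for 29 of the 36 nuclear members and for 2 of the 7 mitochondrial ones, against 12.9% of all genes with mutants lower. Summed over the complex, levels were 18749, 23486 and 24502 CPM in mutant hearts, against 40468, 30110 and 27031 CPM in control hearts, a ratio of mean sums of 0.684.

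NDUFS6, an accessory subunit near the base of the peripheral arm, had 63.0, 90.7 and 84.1 CPM in mutant hearts, against 119.6, 142 and 119 CPM in control hearts. NDUFB5, an accessory subunit of the membrane arm, had 105, 170.3 and 144 CPM in mutant hearts, against 221, 272 and 208 CPM in control hearts. Neither gene's groups overlapped, and mutant heart 1 was the lowest library for NDUFS6 and for NDUFB5. Their log2 fold changes were -0.68 ± 0.20 (SE) with an adjusted p of 0.0667 and -0.74 ± 0.225 with an adjusted p of 0.0777, and both were named after their values were seen, as the complex I members with the smallest adjusted p. DESeq2 gave them adjusted p-values of 0.0207 and 0.0206. NDUFS1, the core subunit with the largest set of iron-sulphur clusters, had 298, 548 and 539.9 CPM in mutant hearts, against 704, 805 and 618 CPM in control hearts, and its groups did not overlap (log2 fold change -0.62 ± 0.28, adjusted p = 0.217). Further core subunits of the electron-carrying arm, NDUFS3, NDUFS7, NDUFS8, NDUFV1 and NDUFV2, had log2 fold changes between -0.67 and -0.50, inside the range of all 36 nuclear members, -0.74 to -0.39.

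Of the mitochondrial genes of complex I, which encode core subunits of the proton-pumping membrane arm, MT-ND1 had 3248, 4852 and 4461 CPM in mutant hearts, against 7204, 5767 and 5322 CPM in control hearts. MT-ND2 had 3192, 3689 and 4420.4 CPM in mutant hearts, against 7087, 5091 and 4542 CPM in control hearts. In both genes control heart 1 was the highest library and the groups did not overlap, with log2 fold changes of -0.54 ± 0.33 and -0.57 ± 0.33. MT-ND4 had 3551, 4186 and 4832 CPM in mutant hearts, against 7878, 4978 and 4750.1 CPM in control hearts, and MT-ND5 had 3659, 3175 and 3070.1 CPM in mutant hearts, against 7917, 3342 and 3598 CPM in control hearts. For MT-ND5, control hearts 2 and 3 lay close to the mutant libraries and control heart 1 stood well above all others, and its log2 fold change of -0.59 ± 0.40 was -0.14 without both libraries numbered 1. MT-ND6, the gene on the opposite strand, showed the same shape with 1002, 839 and 1003 CPM in mutant hearts, against 2199, 1093 and 933 CPM in control hearts. The library protocol does not mark strand, so reads of MT-ND6 cannot be told from reads of the RNA opposite to it. MT-ND3 had 350.0, 531 and 456 CPM in mutant hearts, against 618, 671 and 517 CPM in control hearts, with control heart 3 inside the mutant range. The short gene mt-nd4l, which overlaps MT-ND4 in vertebrate mitochondrial DNA, had 222, 279 and 316 CPM in mutant hearts, against 469, 227 and 321 CPM in control hearts, and its log2 fold change of -0.32 ± 0.28 was 0.13 without both libraries numbered 1. None of the 7 was called, with adjusted p-values from 0.302 to 0.565.

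Complex II, succinate dehydrogenase, is also a TCA cycle enzyme. SDHA, the flavoprotein that oxidises succinate, had 218, 391 and 459 CPM in mutant hearts, against 486, 519 and 432 CPM in control hearts, and SDHB, the iron-sulphur subunit, had 92.2, 202 and 237 CPM in mutant hearts, against 182, 317 and 232 CPM in control hearts. Both pairs of groups overlapped, with log2 fold changes of -0.43 ± 0.28 and -0.46 ± 0.35. The membrane anchors stood further apart between genotypes. SDHC had 93.9, 142 and 129 CPM in mutant hearts, against 161, 251 and 196 CPM in control hearts, and SDHD (ENSDARG00000030139) had 78.1, 111 and 123 CPM in mutant hearts, against 147, 205 and 159.5 CPM in control hearts, in both cases with every mutant library below every control library. Their log2 fold changes were -0.74 ± 0.235 (adjusted p = 0.0917) and -0.71 ± 0.23 (adjusted p = 0.0929) with edgeR, and DESeq2 called both, with adjusted p-values of 0.0317 and 0.035. The anchors were singled out after their values were seen, and the difference between them and SDHA or SDHB was not tested. A further ID named SDHD, ENSDARG00000055712, was near the limit of counting at 0.336, 1.69 and 1.25 CPM in mutant hearts and 0.612, 1.36 and 1.26 CPM in control hearts. The sum over complex II was 483, 848 and 949 CPM in mutant hearts, against 977, 1293 and 1021 CPM in control hearts.

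Complex III, the cytochrome bc1 complex, had the lowest median of the 5 complexes, -0.64 over 8 tested members of 9, a level 35.9% lower in mutant hearts, and the mutant libraries were below all controls for each of the 8. Mutant libraries were below all controls for 12.9% of all genes. Differences between complexes were not tested. UQCRC1, a core protein of the matrix side, had 398, 653 and 765 CPM in mutant hearts, against 1032, 1135 and 854 CPM in control hearts, with a log2 fold change of -0.73 ± 0.285 and an adjusted p of 0.159 (0.0487 with DESeq2). UQCRFS1, the Rieske iron-sulphur protein, had 266, 477 and 523 CPM in mutant hearts, against 547, 778 and 603 CPM in control hearts, a log2 fold change of -0.61 ± 0.29. The other nuclear members, UQCR10, UQCRC2, UQCRH, UQCRQ and uqcrc2a, had log2 fold changes between -0.73 and -0.52. MT-CYB, cytochrome b and the complex's sole mitochondrial gene, had 10147, 12995 and 12021 CPM in mutant hearts, against 18243, 14150.0 and 14119 CPM in control hearts, and its log2 fold change of -0.40 ± 0.38 lay above those of all 7 nuclear members, a difference that was not tested. Summed levels were 11557, 15395 and 14544 CPM in mutant hearts, against 21304, 18133 and 17160 CPM in control hearts.

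Complex IV had 24 tested members of 25, with a median of -0.50. The catalytic core is mitochondrially encoded. MT-CO1, which holds the oxygen-binding site, had 24524, 29945 and 28873 CPM in mutant hearts, against 42166, 32717 and 28989 CPM in control hearts. MT-CO2, which takes electrons from cytochrome c, had 13622, 12214 and 11682 CPM in mutant hearts, against 18309.5, 14413 and 12171 CPM in control hearts, and MT-CO3, the remaining core subunit, had 11624, 12922 and 11983 CPM in mutant hearts, against 17961, 16947 and 13352 CPM in control hearts. In MT-CO1 and MT-CO2 the highest mutant library lay above the lowest control library, while in MT-CO3 the groups did not overlap. Their log2 fold changes were -0.32 ± 0.45, -0.26 ± 0.38 and -0.40 ± 0.37, with adjusted p-values of 0.737, 0.750 and 0.583, and MT-CO2 stood at 0.003 when libraries were scaled by size alone. The 21 tested nuclear members had a median of -0.54 and the 3 mitochondrial ones -0.32. Complex IV sums were 54318, 62050 and 59448 CPM in mutant hearts, against 87571, 74167 and 62321 CPM in control hearts, and the part made up of mitochondrial genes overlapped between groups.

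Several complex IV subunits exist as tissue or oxygen-dependent isoforms, known chiefly from mammals, and zebrafish adds paralogs of its own. Within each family but ndufa4 the isoforms shared the sign of their log2 fold changes, and differences between isoforms were not tested. COX4I1, the common form of the regulatory subunit 4, had 362, 589.8 and 574 CPM in mutant hearts, against 727, 896 and 689.9 CPM in control hearts (-0.60 ± 0.26), and cox4i1l had 319, 511 and 476 CPM in mutant hearts, against 794, 701 and 529 CPM in control hearts (-0.63 ± 0.26). COX4I2, which in mammals is induced by low oxygen, had 7.39, 5.97 and 5.49 CPM in mutant hearts, against 6.12, 15.7 and 11.7 CPM in control hearts (-0.83 ± 0.37, adjusted p = 0.212), and control heart 1 lay among the mutant libraries. For subunit 5A, COX5A and cox5aa gave -0.63 and -0.64. The 2 IDs named COX5B differed, at -0.24 ± 0.32 for ENSDARG00000015978 and -0.65 ± 0.30 for ENSDARG00000068738. ENSDARG00000015978 had 170.2, 224 and 404 CPM in mutant hearts, against 331, 354 and 259 CPM in control hearts, so mutant heart 3 was the highest of all 6 libraries there, and its log2 fold change was 0.01 without mutant heart 1.

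The 2 IDs for subunit 6A, cox6a1 and COX6A1, gave -0.49 and -0.62, and cox6b1 and cox6b2 gave -0.34 and -0.54. In subunit 7A, cox7a1, the form of heart and skeletal muscle in mammals, gave -0.48 ± 0.20, COX7A2, the form found in most mammalian tissues, -0.63 ± 0.27, and COX7A2L, which takes part in joining complexes III and IV, -0.59 ± 0.23. cox8a and cox8b gave -0.52 and -0.34. No isoform in these families was called, and adjusted p-values ran from 0.158 to 0.714.

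The ndufa4 family held members of both signs. NDUFA4, which is named for complex I but is a complex IV subunit in mammals, had 342, 401 and 441 CPM in mutant hearts, against 588, 587 and 438 CPM in control hearts (log2 fold change -0.45 ± 0.22), and its paralog ndufa4b had 535, 1016 and 838 CPM in mutant hearts, against 1374, 1319 and 1319.7 CPM in control hearts (-0.75 ± 0.28, adjusted p = 0.143, 0.0296 with DESeq2). NDUFA4L2, a relative that HIF1 induces in mammalian cells under low oxygen, had 9.18, 4.39 and 3.08 CPM in mutant hearts, against 2.32, 2.10 and 1.77 CPM in control hearts. It was low in all libraries, every mutant library was above every control library, and mutant heart 1 was far above the rest. Its log2 fold change of 1.42 ± 0.49 did not pass the test (adjusted p = 0.118) and was 0.87 without mutant heart 1.

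**Figure D3:**
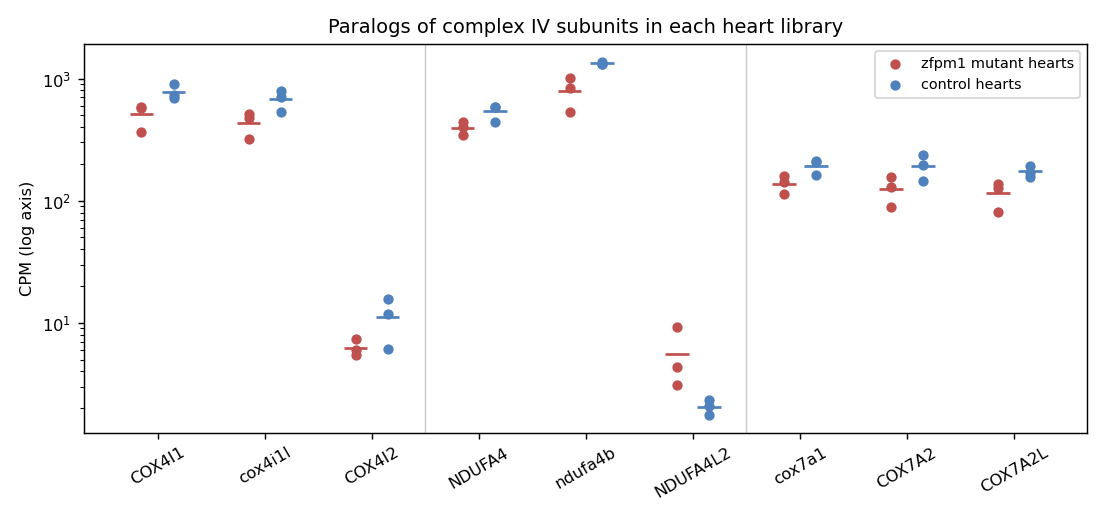
Level in each library (CPM, log axis) of complex IV members of the cox4i, ndufa4 and cox7a families, with each library as a point, the group mean as a line and mutant libraries left of control libraries for each gene. NDUFA4L2 is the sole gene plotted with all 3 mutant libraries above the controls, at 3.08 to 9.18 CPM in mutant hearts and 1.77 to 2.32 CPM in control hearts.

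Complex V had 22 tested members of 22, all with a log2 fold change below 0 and a median of -0.59. Groups did not overlap for 16, against 12.9% of all genes with mutants lower. ATP5F1B, the catalytic beta subunit, had 1803, 3282 and 3844 CPM in mutant hearts, against 4348, 5511 and 4045 CPM in control hearts, a log2 fold change of -0.64 ± 0.36 with an adjusted p of 0.329. ATP5F1A, the alpha subunit that alternates with it in the head, gave -0.59. The ring of c subunits, which turns as protons pass, comes in mammals from several genes for the same mature protein. Of the zebrafish genes, atp5mc1 had 387, 748 and 791 CPM in mutant hearts, against 911, 1266 and 938 CPM in control hearts (-0.70 ± 0.31), atp5mc3b had 914, 1295 and 1347 CPM in mutant hearts, against 1494, 2009.7 and 1521 CPM in control hearts (-0.50 ± 0.27), and ATP5MC3 had 216, 346 and 385 CPM in mutant hearts, against 379.8, 514 and 389 CPM in control hearts (-0.44 ± 0.26, with control heart 1 inside the mutant range). The small membrane subunits atp5md and atp5meb had the smallest adjusted p-values of the complex, 0.0972 and 0.0993, and were named for that after their values were seen. atp5md had 78.3, 107 and 94.3 CPM in mutant hearts, against 150.5, 153 and 121 CPM in control hearts, and atp5meb had 229, 313 and 278 CPM in mutant hearts, against 427, 519 and 364 CPM in control hearts, with no overlap in either. The inhibitors of ATP hydrolysis by the enzyme, atp5if1a and atp5if1b, gave -0.53 and -0.38 with overlapping groups, so enzyme subunits and inhibitors shared the sign.

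MT-ATP6, the membrane subunit beside the c ring, had 5965, 6679.8 and 7294 CPM in mutant hearts, against 12383, 9534 and 8291 CPM in control hearts, with no overlap and a log2 fold change of -0.60 ± 0.35 (adjusted p = 0.344 with edgeR, 0.0426 with DESeq2). mt-atp8, a short membrane subunit, had 6.60, 17.6 and 16.2 CPM in mutant hearts, against 20.9, 17.3 and 28.9 CPM in control hearts, far fewer counts, and its groups overlapped (-0.73 ± 0.37). The 2 genes overlap in vertebrate mitochondrial DNA, and how reads in the overlap were counted is not given in the sources used here. Complex V summed to 13898, 20433 and 22200 CPM in mutant hearts, against 28929, 31702 and 24620 CPM in control hearts, a ratio of mean sums of 0.663.

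The 11 assembly factors, which help build complexes I and II and are not part of the finished enzymes, had a median of -0.34, and 10 of 11 were below 0. NDUFAF1, a factor for an early membrane intermediate of complex I, had 46.4, 75.0 and 80.5 CPM in mutant hearts, against 103, 121 and 102 CPM in control hearts (-0.69 ± 0.23, adjusted p = 0.104). SDHAF3, a factor for the iron-sulphur subunit of complex II, had 10.3, 13.6 and 10.6 CPM in mutant hearts, against 18.0, 19.2 and 18.0 CPM in control hearts (-0.68 ± 0.22, adjusted p = 0.0941). In both, the groups did not overlap, and both were named after their values were seen. NDUFAF2, a late assembly factor of complex I, had 12.2, 14.1 and 12.8 CPM in mutant hearts, against 13.5, 11.8 and 13.0 CPM in control hearts, with overlapping groups (0.03 ± 0.22).

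Nuclear and mitochondrial genes were then set side by side. RNA was selected with oligo(dT) beads, and whether these captured transcripts of both genomes alike was not tested. The 100 tested nuclear members had a median of -0.56 and the 13 mitochondrial members -0.49, and 97 of the 100 and 13 of the 13 were below 0. Without both libraries numbered 1, the medians were -0.39 for nuclear-encoded members and -0.16 for mitochondrially encoded members. Groups did not overlap, with mutants lower, for 69 of 100 and for 5 of 13, and the unadjusted p was under 0.05 in the lower direction for 39 and for 0. Of all genes, 12.9% and 9.14% met these criteria. The counts of 39 and 0 do not compare the genomes alone, since edgeR draws a gene's spread partly from genes of similar level. MT-CO3, with 12176 ± 670 and 16087 ± 2422 CPM in mutant and control hearts (mean ± SD, n = 3 each), had an SE of 0.37. DESeq2 called 8 nuclear members and 1 mitochondrial member lower, against 4.17% of all genes. Nuclear members summed to 18064, 30137 and 31463 CPM in mutant hearts, against 37090, 46779 and 35514 CPM in control hearts, 26555 ± 7383 and 39795 ± 6100 CPM (mean ± SD, n = 3 each) with a ratio of 0.667. Mitochondrial members summed to 81112, 92324 and 90427 CPM in mutant hearts, against 142456, 108948 and 96934 CPM in control hearts, 87954 ± 6001 and 116113 ± 23592 CPM (mean ± SD, n = 3 each) with a ratio of 0.757. In both sums the groups did not overlap, and the mitochondrial one was closest at mutant heart 2 and control heart 3.

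As a share of all gene counts, before any scaling, mitochondrial members took 9.52%, 9.67% and 9.47% in mutant hearts, against 13.3%, 9.17% and 9.38% in control hearts. The share was thus nearly equal in 5 of 6 libraries, and control heart 1 stood above them. Nuclear members took 2.12%, 3.16% and 3.30% in mutant hearts, against 3.47%, 3.94% and 3.44% in control hearts, with no overlap. The ratio of mitochondrial to nuclear counts was 4.49, 3.06 and 2.87 in mutant hearts, against 3.84, 2.33 and 2.73 in control hearts, or 3.48 ± 0.884 and 2.97 ± 0.783 (mean ± SD, n = 3 each), and the groups overlapped. Both libraries numbered 1 had the highest ratio of their group. Of the counts of mitochondrial members, MT-CO1 took 30.2% to 32.4% in mutant hearts, against 29.6% to 30% in control hearts. MT-ATP6 took 7.24% to 8.07% in mutant hearts, against 8.55% to 8.75% in control hearts. Differences in these shares were not tested.

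**Figure D4:**
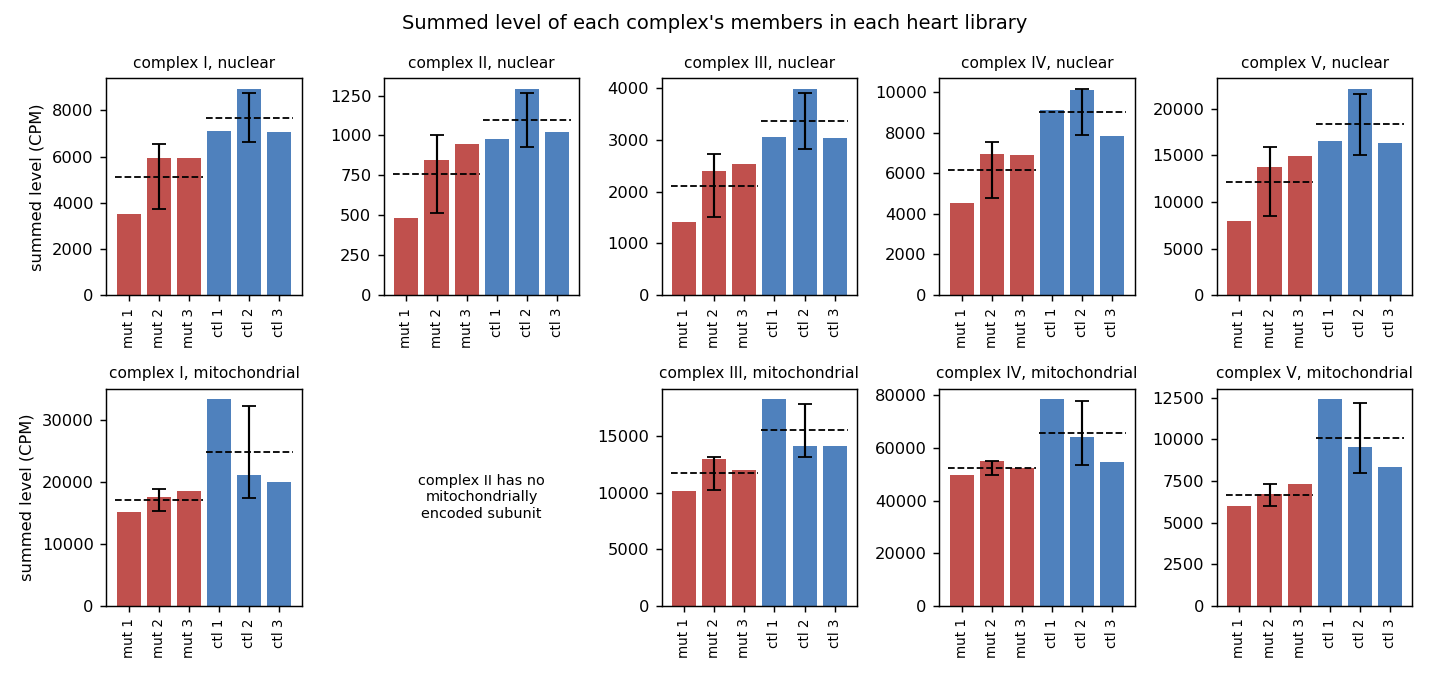
Summed level of each complex's nuclear (top) and mitochondrial (bottom) members in each library, in CPM, mutant bars left of control bars, with the group mean as a dashed line and ± 1 SD as an error bar at the middle of the group (n = 3 each). Mutant bars are below all control bars in every panel but that of the mitochondrial members of complex IV, where mutant heart 2 (55081 CPM) is above control heart 3 (54512 CPM). As shares of gene counts before TMM scaling, the groups also overlapped for complex II, nuclear members of complex V and mitochondrial members of complexes I and III.

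The counts of some members differed more than most between a heart library and the file labelled as embryo that matches it. Of 111 members with enough counts in both matched files, 101 had heart to file ratios between 0.4 and 0.6 for both matches, and 10 did not. NDUFB4 had ratios of 5.15 in mutant heart 1 and 5.18 in control heart 1, COX6A1 (ENSDARG00000054588) had 1.81 and 1.90, atp5meb had 1.60 and 1.65, and cox8a had 1.03 and 1.05. ATP5MC3 had 1.32 and 1.24, MT-ND6 had 0.935 and 0.956, mt-atp8 had 0.776 and 0.684, and COX5B (ENSDARG00000015978) had 0.38 and 0.409. NDUFAF8 had 0.656 and 0.523, and sdhaf1 had 0.613 and 0.463. The cause of these differences was not tested.

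The rest of the mitochondrial gene programme, taken from lists of related genes that hold no members, pointed the same way in most lists, with few calls. List medians are those after TMM scaling, where all genes had a median of -0.01. Scaling by library size alone moved the median of all genes by 0.26, and the list medians under it are not given here. Of all genes, 2.42% were called lower and 7.02% higher. The list of electron carriers and exchangers had 21 tested genes, 1 called lower, 0 higher, and a median of -0.41. COQ7, a hydroxylase of ubiquinone synthesis, fell to 12.5, 14.7 and 14.4 CPM in mutant hearts, against 20.6, 27.0 and 26.5 CPM in control hearts (log2 fold change -0.83 ± 0.21, adjusted p = 0.0403). The TCA cycle list had 20 tested genes, 1 called lower and 0 higher, a median of -0.57, and 14 with every mutant library below every control library (12.9% of all genes). OGDH (ENSDARG00000103428), an ID named for the E1 subunit of the 2-oxoglutarate dehydrogenase complex, fell to 30.7, 37.0 and 45.3 CPM in mutant hearts, against 71.3, 68.6 and 67.5 CPM in control hearts (-0.88 ± 0.19, adjusted p = 0.0244). A paralog in the list, ogdha, had 259, 452 and 472 CPM in mutant hearts, against 662, 481 and 503 CPM in control hearts. It was not called (-0.48 ± 0.275, edgeR adjusted p = 0.34). With each library left out in turn, COQ7 kept its call only without control heart 1 and OGDH only without mutant heart 3, and their adjusted p-values reached 0.166 and 0.0999. Scaling by library size alone also ended both calls, at adjusted p-values of 0.116 and 0.061.

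Among 23 tested regulators of mitochondrial genes, 1 was called lower and 1 higher, and the median was -0.34. TWNK, the helicase that unwinds mitochondrial DNA, fell to 11.6, 13.7 and 14.8 CPM in mutant hearts, against 23.4, 25.6 and 25.5 CPM in control hearts (-0.89 ± 0.20, adjusted p = 0.0269). pprc1, a coactivator related to PPARGC1A, rose to 34.1, 27.2 and 34.4 CPM in mutant hearts, against 14.8, 11.1 and 15.3 CPM in control hearts (1.22 ± 0.22, adjusted p = 0.0098), and it kept an adjusted p of at most 0.0477 without any single library, whereas TWNK did so only without mutant heart 3 and also lost its call with scaling by library size alone (adjusted p = 0.0751). TFAM, which packages mitochondrial DNA and starts its transcription, had 32.7, 54.8 and 46.6 CPM in mutant hearts, against 57.5, 78.5 and 68.1 CPM in control hearts (-0.61 ± 0.23, adjusted p = 0.152), and PPARGC1A, a master coactivator of mitochondrial biogenesis, had 13.5, 36.4 and 32.4 CPM in mutant hearts, against 52.8, 21.6 and 41.0 CPM in control hearts (-0.49 ± 0.41, adjusted p = 0.534). TFAM and PPARGC1A were named after their values were seen. The groups did not overlap for TFAM and overlapped for PPARGC1A.

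The mitochondrial ribosome, which translates the 13 mitochondrial members, had 73 tested genes with 72 below 0, a median of -0.48 and 0 calls. At an unadjusted p under 0.05, 21 were lower, against 9.14% of all genes. Its most abundant members, MRPL12 and MRPL2, gave -0.44 ± 0.22 and -0.60 ± 0.34. The other assembly factors, 34 tested, had a median of -0.39 and 0 calls, with cox17, a copper carrier for complex IV, at -0.68 ± 0.22 and COX10, a heme farnesyltransferase, at -0.58 ± 0.26. Uncoupling and reactive oxygen defence genes were mixed, with 12 tested, 7 below 0, 3 called higher (against 7.02% of all genes), 0 called lower and a median of -0.25. UCP1, the uncoupling protein known for heat production in mammals, rose to 983, 137 and 134 CPM in mutant hearts, against 1.83, 0.617 and 0.504 CPM in control hearts (8.70 ± 1.07, adjusted p = 0.00175), and it was 7.09 without mutant heart 1. Liver markers, given below, were also higher in mutant hearts, and the part of liver cells in the UCP1 values was not tested. The glutathione peroxidase gpx4a rose to 117, 85.1 and 61.9 CPM in mutant hearts, against 12.2, 25.8 and 17.8 CPM in control hearts (2.24 ± 0.33, adjusted p = 0.00383). Another, gpx1b, rose to 65.5, 28.9 and 5.10 CPM in mutant hearts, against 0.489, 2.71 and 0.504 CPM in control hearts (4.73 ± 0.97, adjusted p = 0.0175). It was 3.79 without mutant heart 1 and 6.01 without control heart 2, and it lost its call without control heart 1 or control heart 3, at adjusted p-values of 0.0556 and 0.0952. Other glutathione peroxidase IDs went the other way, gpx1a at -0.94 ± 0.32 and GPX4 (ENSDARG00000076836) at -0.48 ± 0.225. Neither was called, at edgeR adjusted p-values of 0.113 and 0.24.

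Markers of several cell types also moved with genotype, where 2.42% of all genes were called lower and 7.02% higher. Cardiomyocyte markers had 20 tested genes, 17 below 0, a median of -0.65 and 1 called lower, ACTC1 (ENSDARG00000057911, an ID named for cardiac alpha actin), which fell to 185, 489 and 442 CPM in mutant hearts, against 1419, 2309 and 1841 CPM in control hearts (-2.32 ± 0.395, adjusted p = 0.00801). Its paralog actc1a had 2089, 4849 and 5699 CPM in mutant hearts, against 6733, 10351 and 6892 CPM in control hearts. It was not called (-0.92 ± 0.44, edgeR adjusted p = 0.246). Erythroid markers were called lower for 17 of 18 tested genes, with summed levels of 335 to 641 CPM in mutant hearts and 32278 to 57063 CPM in control hearts. The globin IDs hbaa2 and hbae1.1 had no count in any mutant heart, but both fell below the filter on low counts and were not tested. Each erythroid marker ID but ENSDARG00000074777, a further ID named ANK1, was counted in all control hearts. Liver markers were called higher for 13 of 13, with summed levels of 2819 to 5093 CPM in mutant hearts and 134 to 153 CPM in control hearts, where hamp had no count. Myeloid markers were called higher for 11 of 11 tested, with 916 to 1317 CPM in mutant hearts and 217 to 341 CPM in control hearts, and the ID ENSDARG00000078569, a further copy named MPEG1, was at 0 in all libraries while the MPEG1 IDs that were tested were called higher. Endothelial, skeletal muscle and neuronal markers had 0 calls, and medians of -0.25, -0.74 and -0.10. The part of these cell types in the values of the oxidative phosphorylation members, or of UCP1 and the other related genes, was not tested.

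Set against the summed cardiomyocyte markers, nuclear members had a ratio of 0.576, 0.575 and 0.553 in mutant hearts, against 0.422, 0.603 and 0.503 in control hearts, so the groups overlapped. Mitochondrial members had ratios of 2.59, 1.76 and 1.59 in mutant hearts, against 1.62, 1.40 and 1.37 in control hearts, with control heart 1 inside the mutant range.

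**Figure D5:**
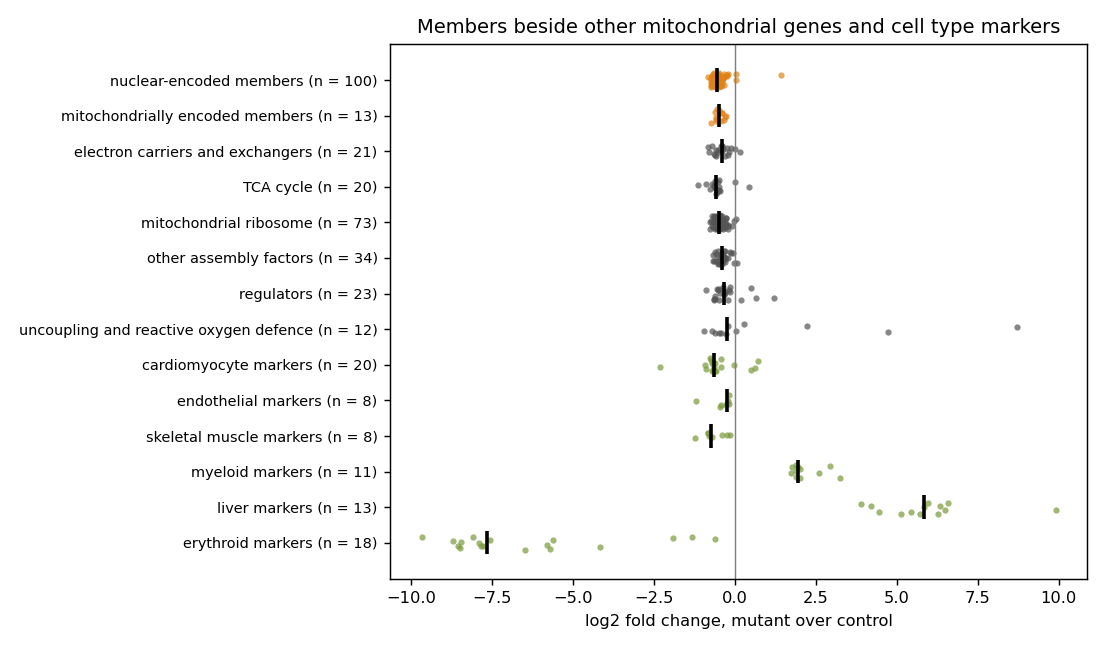
Log2 fold change of mutant over control hearts for the oxidative phosphorylation members beside the lists of related mitochondrial genes and of cell type markers (neuronal markers are not drawn), with each tested gene as a point and the median as a line. Nuclear members centre on -0.56, mitochondrial members on -0.49 and cardiomyocyte markers on -0.65, while erythroid markers centre on -7.66, liver markers on 5.86 and myeloid markers on 1.96.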

How the data were processed

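Raw read counts per gene were deposited by the authors, 1 file per library, and were used as deposited. The submitters' processing notes list GRCz10 as the build, with HTSeq 0.6.1p1 as counter and TopHat2 2.2.1 and Bowtie2 2.2.3 among the other tools. The counting mode and strand setting were not given in the sources used here. Per the labels' protocols RNA was selected with oligo(dT) beads by a kit that does not mark strand. Lines for reads in no feature (42.4% to 48.8% of all lines in the heart files), not uniquely aligned (11.1% to 21.8%) and ambiguous (0.601% to 1.08%) stayed out of library sizes and tests.

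Symbols came from a table that named 26121 of the 31953 gene IDs. IDs without a symbol cannot match the name rule, so some subunits may be missing from the members. The 6 heart libraries were fitted over 16707 genes with edgeR 4.0.16 in R 4.3.3: filterByExpr with a minimum count of 10, TMM scaling, the quasi-likelihood test with group as the only term, and Benjamini-Hochberg adjustment over all tested genes at 0.05. DESeq2 1.42.0, other scalings, other filters, the replicate number as a block and each library left out were alternatives. The fit was checked on simulated counts with larger log2 fold changes than nearly all members had, in equal numbers up and down. That check does not cover changes of the size seen in the members. Paralogs that share reads, and IDs that share a symbol, have uncertain counts.

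The members and lists were chosen with earlier results of these data known, so their counts and medians are descriptions with no test of the list. The text names zfpm1, every mitochondrial member, per complex up to 4 called members and the 2 with the highest mean CPM, the tested members of the isoform families of complexes IV and V, and per list of related genes up to 3 called genes or, with no call, the 2 most abundant; all other genes named were chosen after their values were seen. Intervals are 95% intervals of the fitted log2 fold change.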

Additional observations from a re-analysis of the deposited data

How the results depend on the processing

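The members' median log2 fold change stayed below 0 under every setting run, and with each library left out in turn it ranged from -0.67 to -0.35. Over the same omissions it ranged from -0.68 to -0.36 for complex I, from -0.74 to -0.16 for complex II, from -0.78 to -0.43 for complex III, from -0.63 to -0.35 for complex IV, from -0.69 to -0.35 for complex V, from -0.59 to -0.28 for mitochondrial and from -0.68 to -0.35 for nuclear members. Members called lower numbered 0 in the edgeR test, 9 with DESeq2 and 1 with the replicate block (SDHC, adjusted p = 0.0423). Of all genes, edgeR called 2.42% lower and DESeq2 4.17%, and the share with the replicate block is not given here. Members lower at an unadjusted p under 0.05 numbered 39 in the edgeR test, 76 with DESeq2, 67 with the replicate block, 63 without a filter, 28 without both libraries numbered 1, 5 with scaling by library size alone, and 9 (without control heart 2) to 42 with a library left out, with 12 without mutant heart 1. In the edgeR test 9.14% of all genes were lower at that threshold. The shares of all genes under the other settings are not given here, so those counts describe the members alone. Same-numbered mutant and control libraries had correlations of their deviations of 0.111, 0.242 and -0.071, and differently numbered ones from -0.276 to 0.138. With 3 libraries a group these values cannot decide if the numbers mark pairs. The labels state no pairing, so group was the only term of the main fit. Genes called in all numbered 1576, and between 604 (without control heart 3) and 1302 with a library left out, with 1034 without control heart 2. Without both libraries numbered 1, the median of mitochondrial members was -0.16, against -0.49 with all libraries, and mt-nd4l (0.127) and COX5B ENSDARG00000015978 (0.054) turned positive. COX5B ENSDARG00000015978 was also positive without mutant heart 1 (0.014) and with scaling by library size alone (0.004), as was MT-CO2 with that scaling (0.003). The log2 ratio of mean mitochondrial shares, mutant over control, was -0.15 of gene counts and 0.23 with nuclear members as the denominator, and with each library left out it ranged from -0.25 to 0.04, the highest value being that without control heart 1. Leaving out libraries from the shares and from the counts of members without overlap was chosen after seeing the data. Unless stated above, the cause was not tested. With 3 libraries a group, edgeR with group as the only term did not separate a single member from the spread it estimated between libraries. That spread is drawn partly from other genes of similar level.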
